A study of Mus musculus with 6 samples.

Results

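Mitochondria make most cellular ATP with a chain of protein complexes in their inner membrane, and the genes described here encode the nuclear subunits of complexes II to V of that chain. All genes of the deposited count table were taken whose symbol is Sdha, Sdhb, Sdhc or Sdhd or starts with Uqcr, with Atp5, or with Cox followed by a digit from 4 to 8. This rule found 48 of the 25239 genes of the table: 4 of complex II, 8 of complex III, 19 of complex IV and 17 of complex V. In GENCODE M21, 47 of them are protein-coding and 1, Cox7c-ps1, is a pseudogene. The rule used names only and no measured value, so the levels and ratios below did not choose the genes. Cox7a2l, found under its Cox7 name, is known chiefly as a factor that joins complexes III and IV into larger assemblies. Cyc1, the cytochrome c1 subunit of complex III, and the subunits encoded in mitochondrial DNA do not match these names and are not among the 48.

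Complex II (succinate dehydrogenase) oxidises succinate in the citric acid cycle and passes the electrons to ubiquinone. Complex III hands electrons from ubiquinol to cytochrome c, complex IV (cytochrome c oxidase) hands them to oxygen, and complex V (ATP synthase) uses the proton gradient that the chain builds up to make ATP. Oocytes depend on mitochondrial ATP, partly fed by pyruvate from the surrounding cumulus cells, and they store many messenger RNAs in a silent form until meiosis resumes. Several complex IV subunits have 2 or more gene copies that are used in different tissues, such as liver, heart and skeletal muscle, lung or testis.

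The data are 6 Smart-seq3 libraries, a method that copies polyadenylated RNA of single cells along its full length, from mouse oocytes in the germinal vesicle (GV) stage, with the nucleus intact. Female CD-1 mice, an outbred strain, aged 4 to 6 weeks gave cumulus-oocyte complexes, which were microinjected with water (3 libraries) or with a mixture of phthalate metabolites (3 libraries). Phthalates are plasticizers. All complexes, the water controls included, then went through the same maturation medium with 10% fetal bovine serum, 200 mIU/mL follicle-stimulating hormone and 50 µg/mL sodium pyruvate before GV oocytes were taken. The labels give no dose, no composition of the mixture, no culture time and no animal for any library. They number the libraries of a group 1 to 3, and each is called an oocyte here after its title, but the protocol's wording also allows a single oocyte behind all libraries of a group. Each group was therefore counted as 1 sample, so that no contrast of the groups is backed by replication, no test was run, and intervals cover counting error only.

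Values given with water or with phthalate are those of oocytes 1, 2 and 3 of that group, in this order. The libraries held between 252267 and 300917 gene counts, of which 1650 to 2320 fell on the 48 genes. Of the values from 1 to 20, between 68.0% and 71.1% were even numbers in each library, so paired mates were probably counted separately. For that reason the intervals of the main ratios are also given with counts halved to read pairs. All 12 oocyte markers had counts, led by Gdf9, a growth factor secreted by the oocyte. Of 20 cumulus and granulosa markers, 9 had a count, with 10 to 39 counts per library in sum, and most of these came from Nr5a2 (103 of the counts in all). The other 11, among them Foxl2, Amhr2 and Star, were at 0, as were all 6 blood and immune markers. Dcn was the 1 theca and stroma marker of 4 with a count (4 in all), and Pecam1 was the 1 endothelial marker of 2 (77 in all). Transcripts encoded by mitochondrial DNA were not analysed here, because no gene of the table carries their mt- prefix.

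The promoters of 4 genes are shown because they belong to the extremes of isoform use in these oocytes, a partner gene without a count (Cox8b, one of 3 such genes) and a partner gene at the level of the main one (Cox6b2). Cox8a and Cox8b encode the liver and the heart and skeletal muscle form of the same subunit, and Cox6b1 and Cox6b2 the widely used and the testis form of another. Each sequence is the 250 bases before the start site in RefSeq (GRCm38.p6), read 5′ to 3′ on the gene's strand, with CG dinucleotides in capitals. All 4 genes lie on the minus strand: Cox8a at chr19:7217617-7217866, Cox8b at chr7:140900447-140900696, Cox6b1 at chr7:30626115-30626364 and Cox6b2 at chr7:4753095-4753344.
Cox8a: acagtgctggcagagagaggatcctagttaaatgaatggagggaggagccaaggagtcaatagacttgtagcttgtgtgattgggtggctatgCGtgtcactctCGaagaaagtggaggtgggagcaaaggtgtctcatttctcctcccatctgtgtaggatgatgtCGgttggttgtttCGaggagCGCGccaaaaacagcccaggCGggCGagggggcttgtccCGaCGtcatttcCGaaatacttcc
Cox8b: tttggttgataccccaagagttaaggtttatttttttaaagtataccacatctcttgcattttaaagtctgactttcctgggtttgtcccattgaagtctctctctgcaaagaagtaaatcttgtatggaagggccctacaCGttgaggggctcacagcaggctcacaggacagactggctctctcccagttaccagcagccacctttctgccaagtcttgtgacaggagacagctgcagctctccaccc
Cox6b1: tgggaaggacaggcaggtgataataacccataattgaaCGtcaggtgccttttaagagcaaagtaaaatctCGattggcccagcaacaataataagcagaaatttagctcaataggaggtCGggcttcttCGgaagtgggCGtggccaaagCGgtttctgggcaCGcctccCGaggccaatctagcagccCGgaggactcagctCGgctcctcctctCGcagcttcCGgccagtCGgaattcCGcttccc
Cox6b2: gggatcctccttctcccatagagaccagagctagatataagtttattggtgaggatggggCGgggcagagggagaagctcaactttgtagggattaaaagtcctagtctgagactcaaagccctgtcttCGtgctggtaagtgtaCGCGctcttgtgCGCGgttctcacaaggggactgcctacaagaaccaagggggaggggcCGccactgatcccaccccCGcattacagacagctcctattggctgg

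The stretch shown held 11 CG dinucleotides for Cox8a and 1 for Cox8b, and 14 for Cox6b1 against 8 for Cox6b2. Over 300 bases around the start (250 before and 50 after), the ratio of observed to expected CG was 0.84 for Cox8a and 0.11 for Cox8b. It was 0.81 for Cox6b1 and 0.43 for Cox6b2, although both had counts in every library, as the values below show. The other partner genes without a count did not go one way: Cox7a1 had a ratio of 0.33 beside 0.83 for Cox7a2, while Cox7b2 had 0.56, above the 0.37 of Cox7b. The promoter table held 36 of the 48 genes. The median CG ratio was 0.84 over the 31 of them that passed the filter on low counts (called tested members here, as tested genes are all genes that passed, although only ratios were computed), 0.56 over the 5 that did not, 0.82 over the 3793 tested genes with an entry and 0.39 over all 27025 genes of the table. Thus the expressed subunit genes were near the other expressed genes in this measure, and Cox7b, which was well expressed with a CG ratio of 0.37, was far below their median.

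Letter patterns that transcription factors of respiratory genes are known to prefer were searched on both strands of the same 300 bases. A gene counted as matched if any of its listed start sites had a match, and none of these patterns contains another. The NRF1 core GCATGCGC was found in 6 of 31 tested members (19.4%), which were Atp5g2, Atp5k, Atp5l, Cox6a1, Sdhb and Uqcr11, in 7.78% of the tested genes and in 3.05% of all promoters. This form was chosen after the matches of a longer one, the same letters with GC before them, had been seen: the longer form was in 3 of 31 (9.68%), 3.06% and 1.07%. An ETS core, CCGGAAG, which the factor GABP also reads, stood in 13 of 31 (41.9%), against 24.3% of tested genes and 9.93% of all. The YY1 core AAGATGGC stood in 3 of 31 (9.68%), against 6.75% and 3.19%. The GC box GGGCGG went the other way, with 13 of 31 (41.9%) against 70.5% of tested genes and 38.2% of all promoters. At the first listed start site the median GC content was 56.7% in the tested members and 61.3% in the tested genes. Its part in the GC box difference was not tested. TATAAA was found in 2 of 31 (6.45%), which were Atp5l and Atp5md, against 8.41% and 15.7%. Of the genes below that were past 1.5-fold, no NRF1 core was in the window of Sdhd, Uqcrfs1, Cox7c, Atp5j2 or Uqcr10, and Uqcrc2 had no entry. These are matches of letters, not sites shown to be bound.

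At the 3′ end, where maternal messenger RNAs carry the elements that govern their storage, the last bases of the longest protein-coding transcript of each gene (GENCODE M21) were searched. A polyadenylation signal, AATAAA or ATTAAA, lay in the last 40 bases of 34 of the 39 tested members (87.2%) and of 77.7% of the 4567 tested genes with a transcript. A cytoplasmic polyadenylation element, the short U-rich element that lengthens the poly(A) tail of stored transcripts when oocytes mature, was searched as TTTTAT or TTTTAAT in the last 100 bases. It was present in 1 of 39 tested members (2.56%) and in 20.6% of the tested genes. When any protein-coding transcript of the gene counted, the shares were 2 of 39 (5.13%) and 30.2%. The last 100 bases had a median GC content of 41.0% in the members and 36.0% in the tested genes, which moves with this share, and its part in the difference was not tested. Windows of 30 bases show the 1 element, in Cox5a (chr9:57532330-57532359, plus strand), and for comparison the polyadenylation signals of Cox4i1 (chr8:120674166-120674195, plus strand) and Atp5j2 (chr5:145183718-145183747, minus strand), in capitals and in DNA letters.
Cox5a: tgcctggaaatgTTTTATttgaacaaattt
Cox4i1: cgtatccaatggtccatgctAATAAAagac
Atp5j2: ctgactgagaactagtgtccAATAAAaggt

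Of the 48 genes, 44 had a count in some library and 4 had none: Cox7a1, Cox7b2, Cox8b and the pseudogene Cox7c-ps1. The filter on low counts (edgeR's filterByExpr) kept 39 of the 48 (81.2%) and 18.4% of all genes of the table. Besides the 4 at 0, it left out Cox4i2, Cox8c, Uqcrc1, Atp5g3 and Cox6a2. Levels between genes were compared as CPM per kb: each library's counts divided by its total, scaled by edgeR's TMM factors, and multiplied by 1000000, averaged over the 6 libraries and divided by the length of the longest protein-coding transcript. The median CPM per kb was 46.5 in complex II, 94.9 in complex III, 275 in complex IV and 139 in complex V over the genes with a count, so complex IV led.

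Complex II was the lowest of the complexes in level per length. Sdhb, its iron-sulfur subunit, stood at 59.4 CPM per kb, Sdha, the flavoprotein that oxidises succinate, at 48.9, and the membrane anchors Sdhd and Sdhc at 44.1 and 22.4. With the median transcript length in place of the longest this order turned. Sdhc then stood at 87.3 and Sdha at 78.3, above Sdhb at 59.4 and Sdhd at 44.1. In complex III 3 of the small subunits led, with Uqcrh, the hinge protein, at 369 CPM per kb, Uqcrq at 289.8 and Uqcr11 at 287. The core subunit Uqcrc2 at 95.9 stood above the small subunits Uqcr10 (93.9) and Uqcrb (66.2), and the Rieske iron-sulfur protein Uqcrfs1 was at 30.1. Uqcrc1, the other core subunit, which sits beside Uqcrc2 in the complex, was at 3.67 CPM per kb. Its counts were 6, 0 and 2 with water and 2, 0 and 0 with phthalate, while Uqcrc2 had 29 to 67. GENCODE M21 has no near-identical copy of Uqcrc1 (at least 100 bases at 95% identity) and no gene that overlaps it.

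In complex IV, Cox4i1, the large regulatory subunit, was the highest of all 48 genes at 792 CPM per kb, followed there by Cox5b at 536 and Cox7a2 at 458. Cox4i1 was at 684, 658 and 543 CPM with water and at 518, 633 and 599 with phthalate, with overlapping groups. In complex V the lead was held by Atp5e (595 CPM per kb), the epsilon subunit of the catalytic head, Atp5h (526), part of the peripheral stalk, and Atp5j2 (496), the f subunit of the membrane part. The catalytic subunits Atp5a1 and Atp5b were at 128 and 139 per kb, although each complex holds several copies of both. Reads of other genes may be mixed into some of these levels or lost from them. Emc8, on the opposite strand, overlaps Cox4i1 and had 207 counts in all. Cox5b has a near-identical copy, and Atp5h has 4 near-identical pseudogenes. Transcript length also bears on this order. With the median transcript length in place of the longest, Uqcrq moved from 289.8 to 875, Atp5j2 to 878 and Atp5md from 16.5 to 125 CPM per kb, and Cox4i1, at 813, came after Atp5j2 and Uqcrq.

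**Figure D1:**
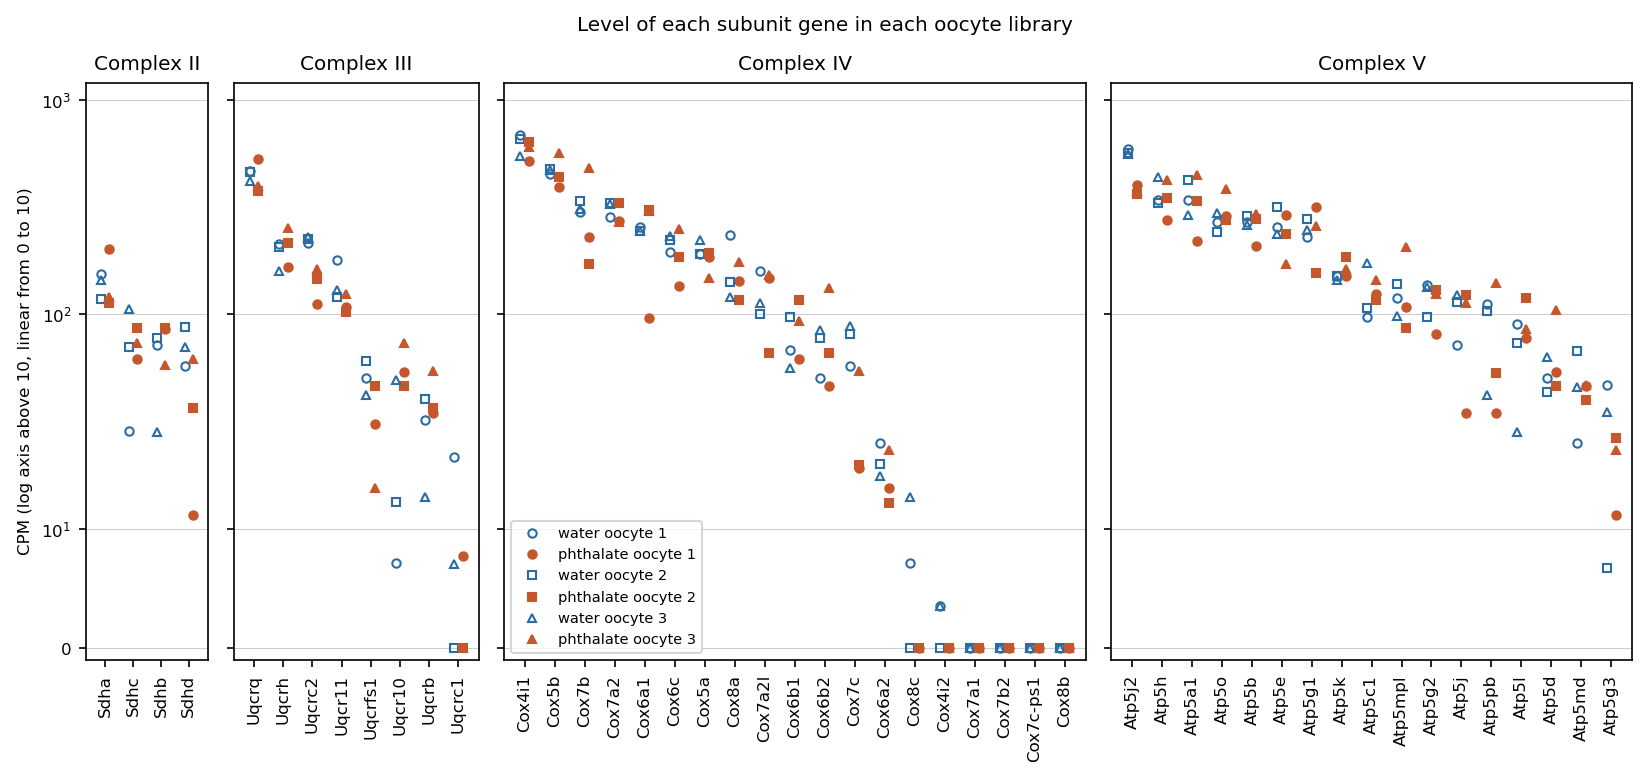
CPM (counts per 1000000 of the TMM-scaled library total, log axis above 10 and linear below) of each of the 48 genes in each of the 6 oocyte libraries, by complex. Open blue symbols are water oocytes, filled orange symbols phthalate oocytes, and symbol shape gives the oocyte number. Most genes overlap between the groups, Cox7c, Uqcrc2 and Atp5j2 do not, and 4 genes are at 0 in all 6 libraries.

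Isoform use was uneven, and the partner genes named here were fixed by family and not by their values. Of the counts of the Cox4 pair, Cox4i2, the lung form that responds to low oxygen, took 2 of 1021 (0.196%, exact 95% interval 0.0237% to 0.706%), 1 each in water oocytes 1 and 3. Cox7a1, the heart and muscle partner of Cox7a2, had 0 of 509 counts. Taking 3 counts as what a count of 0 allows, its share could be up to 0.589% (exact 95% limit 0.722%). Cox7b2, the testis partner of Cox7b, had 0 of 506, which allows up to 0.593% (0.726%). These limits cover counting error only and are wider if mates were counted singly. In the Cox8 trio, Cox8a had 258 of 264 counts (65, 42 and 34 with water and 37, 35 and 45 with phthalate), Cox8b had 0, which allows up to 1.14% (1.39%), and the testis form Cox8c had 6 (2.27%, interval 0.839% to 4.88%). The 6 Cox8c counts were 2 in water oocyte 1 and 4 in water oocyte 3. The phthalate oocytes had 0, and since 6 counts come to no more than the floor of 3 when mates are counted as pairs, no ratio is read from them.

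Cox6a2, the heart and muscle form, was present at a low level in every library, at 7, 6 and 5 counts with water and 4, 4 and 6 with phthalate. It took 32 of the 440 counts of the Cox6a pair (7.27%, interval 5.03% to 10.1%) and 6.18% per length. The Cox6b pair was shared almost evenly. Cox6b2, known as the testis form, had 14, 23 and 24 counts with water and 12, 20 and 34 with phthalate, and Cox6b1 had 19, 29 and 16 and then 16, 35 and 24. Cox6b2 thus made up 47.7% of the pair's 266 counts (interval 41.6% to 53.9%) and 49.1% per length. Its share was 42.4%, 44.2% and 60.0% with water and 42.9%, 36.4% and 58.6% with phthalate, so it varied more within each group than between the group sums (48.8% and 46.8%). No near-identical copy and no overlapping gene is annotated for Cox6b1 or Cox6b2. In the Atp5g trio, whose mature proteins form the same c ring, Atp5g1 held 63.3% of the 651 counts, Atp5g2 30.3% and Atp5g3 6.45%. Divided by the length of the longest transcript the order changed, with 64.3% for Atp5g2 and 21.5% for Atp5g1, which has the longest transcript of the trio. With the median transcript length Atp5g2 still led, at 172 CPM per kb against 92.5 for Atp5g1 and 34.8 for Atp5g3. Atp5g1 has a near-identical pseudogene (411 bases at 99.8% identity), so its reads may be split. Atp5g2 was at 137, 97.4 and 134 CPM with water and at 81.2, 129 and 125 with phthalate. Atp5g3 was at 46.8, 6.72 and 35.3 CPM and then 11.6, 26.5 and 23.3, on 42 counts in all.

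**Figure D2:**
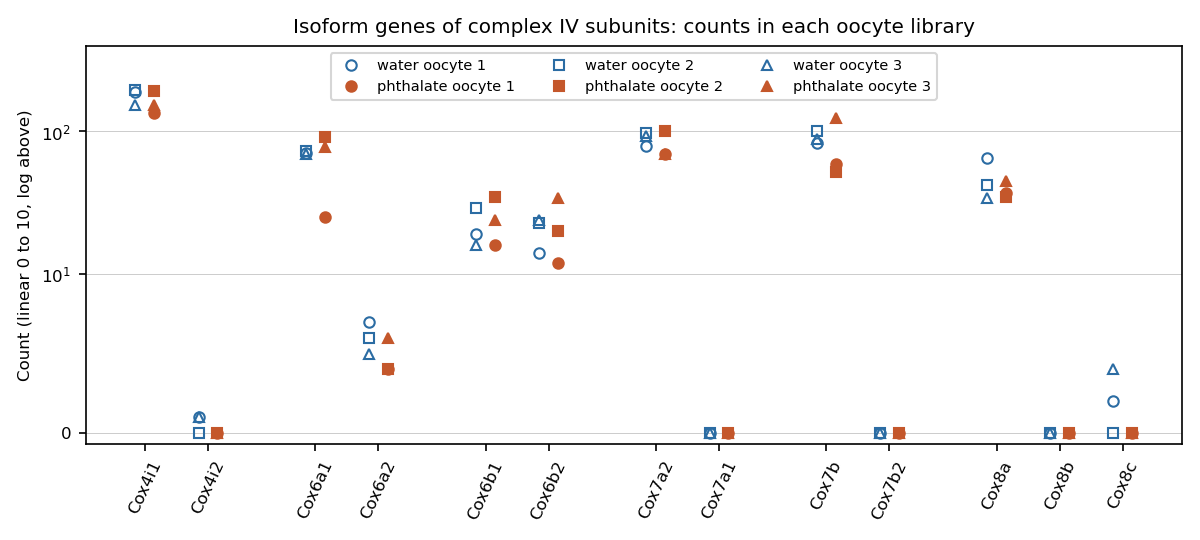
Counts of the isoform genes of 6 complex IV subunits in each library (linear from 0 to 10, log above), with partner genes side by side. Cox7a1, Cox7b2 and Cox8b are at 0 in all 6 libraries, Cox8c and Cox4i2 have counts in water oocytes 1 and 3 only, and Cox6b2 lies at the level of Cox6b1.

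The comparison of the groups asks how the mixture affects these transcripts. Counts were added up per gene and group and divided by the summed scaled totals, and the ratio of phthalate to water was taken on a log2 scale. Of the 39 tested members, 14 were higher and 25 lower with phthalate, with a median log2 ratio of -0.073. Over all 4644 tested genes the median was 0.0089, with 51.2% higher, and the middle 90% of the genes lay between -0.72 and 0.66. By complex the medians were 0.08 in II, -0.06 in III, -0.10 in IV and -0.08 in V. The median of the members turned to 0.045 without phthalate oocyte 1 and to 0.0063 without phthalate oocyte 2, so its sign rests on these libraries.

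Only 1 of 39 tested members was at least 1.5-fold higher with phthalate, where 6.96% of all tested genes were, and 5 of 39 (12.8%) were at least 1.5-fold lower, where 8.14% were. The 5 were Cox7c, Sdhd, Uqcrfs1, Uqcrc2 and Atp5j2, spread over all 4 complexes, and the gene past it in the other direction was Uqcr10. All 3 phthalate values lay below all 3 water values in 3 of the 39 (Cox7c, Uqcrc2 and Atp5j2), against 5.0% of the tested genes, and above them in 0 of the 39, against 5.15%. Among the 31 members with a mean count of at least 20, a limit set after seeing the data, 2 (Uqcrc2 and Atp5j2) were past 1.5-fold lower and 0 past 1.5-fold higher, with backgrounds of 4.09% and 4.02%. The same 2 lay below all water values, where 4.81% of such genes did, and 0 lay above them, where 5.42% did. These are shares of 1 or a few genes, close to the background. The filter asks for 3 libraries at about 10 counts, and 4 of the 6 genes past 1.5-fold met it in every library of only the group where they are high. Cox7c, Uqcrfs1 and Sdhd met it in all 3 water oocytes and in 1, 1 and 2 phthalate oocytes, and Uqcr10 in all 3 phthalate oocytes and 1 water oocyte, so the counts after the filter are a description. Single libraries decide many of these ratios. With some library left out, the ratio changed sign in 20 of the 39 tested members. No share over all tested genes was computed for this count or for those that follow in this paragraph, so they describe the members only. Of the 6 past 1.5-fold, 4 came inside the lines without some library (Atp5j2, Uqcrc2, Uqcrfs1 and Sdhd), while Cox7c and Uqcr10 were past them in all 6 such settings. Another 6, inside the lines with all libraries, went past them without some library (Atp5d, Atp5l, Atp5pb, Cox7b, Sdhb and Uqcrb).

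**Figure D3:**
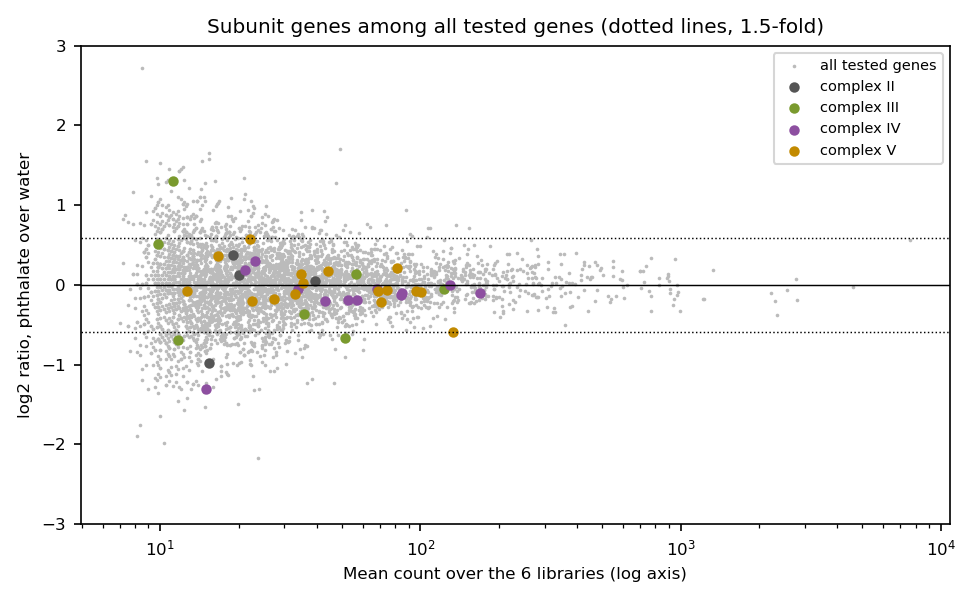
log2 ratio of phthalate over water against the mean count over the 6 libraries (log axis) for the 4644 tested genes (grey) and the 39 tested subunit genes (coloured by complex). Dotted lines mark 1.5-fold. The subunit genes past the lines are mostly at low counts, where the grey points also spread most, and Atp5j2 and Uqcrc2 are the 2 with a mean count of at least 20.

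Complex V held the member whose groups stood apart most cleanly. Atp5j2 was at 586, 564 and 557 CPM with water and at 398, 365 and 374 with phthalate. Within each group the highest and the lowest value differed little, and the groups did not overlap. The log2 ratio was -0.59 (95% counting interval -0.80 to -0.38, and -0.89 to -0.29 with read pairs as the unit), from 489 and 309 counts. It sits at the 1.5-fold line: it was -0.56 without water oocyte 1, and leaving out phthalate oocyte 2 or 3 brought it to -0.55 or -0.58, each just inside the line. No overlapping gene and no near-identical copy is annotated for it.

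No other complex V gene was past 1.5-fold in either direction. Atp5o, the stalk protein that oligomycin sensitivity depends on, was at 269.8, 242 and 296 CPM with water and at 286, 275 and 381 with phthalate (log2 ratio 0.21, interval -0.05 to 0.48), with overlapping groups. The ratio was 0.059 without phthalate oocyte 3, 0.14 without water oocyte 2 and 0.32 without phthalate oocyte 2. Atp5l, the g subunit, which neighbours the f subunit in the membrane, had 89.9, 73.9 and 28.2 CPM and then 77.3, 119 and 85.6. Its log2 ratio of 0.58 (interval 0.06 to 1.10, and -0.19 to 1.30 in read pairs) fell just inside the 1.5-fold line and was 0.22 without water oocyte 3, its lowest library. Without water oocyte 1 it was 0.89. Atp5l also has 9 annotated pseudogenes that are near-identical to it, so its reads may be split. Atp5e stood at 255, 316 and 236 CPM with water and at 289.9, 235 and 171 with phthalate, and Atp5h at 342, 329 and 437 and then 274, 348 and 420.2, both overlapping. Atp5g1 had 230.3, 279 and 247 CPM and then 317, 156 and 257. The other tested complex V genes had log2 ratios between -0.21 and 0.36.

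In complex III the core subunit Uqcrc2 was at 216, 225 and 229 CPM with water and at 112, 146 and 163 with phthalate. The water values were close together and every phthalate value was lower. Its log2 ratio was -0.67 (interval -1.01 to -0.33, and -1.15 to -0.17 in read pairs), and -0.53 without phthalate oocyte 1, which is inside the 1.5-fold line. Pdzd9 on the opposite strand overlaps it and had 0 counts. Uqcrfs1, which carries the Rieske iron-sulfur centre, was at 50.4, 60.4 and 42.3 CPM and then 30.9, 46.4 and 15.6, so the groups overlapped. Its ratio of -0.69 (interval -1.45 to 0.04) rested on 44 and 26 counts and came to -0.38 without phthalate oocyte 3, -0.54 without water oocyte 2, -0.81 without water oocyte 3 and -1.13 without phthalate oocyte 2.

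Uqcr10, a small subunit, was the 1 member past 1.5-fold higher, at 7.20, 13.4 and 49.4 CPM with water and 54.1, 46.4 and 73.9 with phthalate. Water oocyte 3 lay inside the phthalate range and the other two far below it. The log2 ratio was 1.30 (interval 0.52 to 2.14, and 0.22 to 2.56 in read pairs) from 20 and 47 counts, ranging from 0.90 without water oocyte 1 to 2.46 without water oocyte 3. The remaining complex III genes overlapped under this scaling. Uqcr11, which did not overlap with plain library totals, had 179.9, 121 and 130.5 CPM and then 108, 103 and 125 (log2 ratio -0.36, and -0.17 without water oocyte 1). Uqcrh had 212, 205 and 159 CPM and then 166, 215 and 253 (0.14), and Uqcrq had 464, 460.1 and 419.6 CPM and then 529.5, 375 and 397 (-0.06). Uqcrb, at 25 and 34 counts, had a log2 ratio of 0.52, just inside the 1.5-fold line and past it without water oocyte 1, water oocyte 2, phthalate oocyte 1 or phthalate oocyte 2.

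In complex II the anchor Sdhd was at 57.6, 87.3 and 70.5 CPM with water and at 11.6, 36.5 and 62.3 with phthalate. Phthalate oocyte 3 was above the lowest water oocyte, so the groups overlapped, although not with plain library totals. Its log2 ratio of -0.98 (interval -1.66 to -0.32, and -1.97 to -0.04 in read pairs), from 62 and 30 counts, came to -0.58 without phthalate oocyte 1, just inside the 1.5-fold line, and to -1.53 without phthalate oocyte 3. The other anchor, Sdhc, had 28.8, 70.5 and 106 CPM and then 61.8, 86.2 and 73.9 (log2 ratio 0.12). Sdha was at 155, 118 and 145 CPM and then 201, 113 and 121 (0.05). Sdhb was at 72.0, 77.2 and 28.2 CPM and then 85.0, 86.2 and 58.4 (0.38). In Sdhb phthalate oocytes 1 and 2 lay above every water value, and without phthalate oocyte 3 the groups did not overlap. Its log2 ratio was 0.63 without water oocyte 2, past the 1.5-fold line, and 0.045 without water oocyte 3. Thus 1 of the 4 subunits of complex II was past 1.5-fold.

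In complex IV the member furthest from 0 was Cox7c, a small subunit common to all tissues, at 57.6, 80.6 and 88.2 CPM with water and 19.3, 19.9 and 54.5 with phthalate. The groups did not overlap, although phthalate oocyte 3 came within a few CPM of water oocyte 1. The log2 ratio was -1.31 (interval -2.03 to -0.62, and -2.44 to -0.35 in read pairs) from 65 and 25 counts. Leaving out phthalate oocyte 2 brought it to -1.03, and leaving out phthalate oocyte 3 to -1.95. Cox7c has 4 near-identical pseudogenes. Of these Cox7c-ps1 is in the table at 0, and Gm12338 is in it with 6, 4 and 9 counts with water and 5, 11 and 2 with phthalate. Since reads of the pair can be split, their sum was also taken, and its log2 ratio was -0.89 (interval -1.46 to -0.35, and -1.68 to -0.08 in read pairs) from 84 and 43 counts.

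The other tested complex IV genes stayed inside the 1.5-fold lines. Cox5b, which binds zinc, had 449.7, 473 and 469 CPM with water and 390.4, 438 and 564 with phthalate (log2 ratio -0.01). Cox7a2 had 284, 329 and 328 CPM and then 271, 331 and 268 (-0.10), and Cox6b1, the complex IV gene with the highest ratio (0.30, interval -0.20 to 0.81), had 68.4, 97.4 and 56.4 CPM and then 61.8, 116 and 93.4. The Cox6b1 ratio was 0.065 without phthalate oocyte 2, 0.14 without water oocyte 3, 0.51 without phthalate oocyte 1 and 0.56 without water oocyte 2. Single phthalate libraries stood out in 2 other genes. Cox6a1 was at 255, 245 and 243 CPM with water and at 96.6, 305 and 303 with phthalate, with phthalate oocyte 1 low. Cox7b was at 299, 336 and 310.3 CPM and then 228, 172 and 482, with phthalate oocyte 3 high. Both had group log2 ratios inside the lines (-0.06 and -0.13), which single libraries turned. Cox6a1 was at 0.30 without phthalate oocyte 1, with groups that then did not overlap, and at -0.30 without phthalate oocyte 2. Cox7b was at -0.67 without phthalate oocyte 3, past the line and without overlap, and at 0.18 without phthalate oocyte 2. Cox7a2l had 158, 101 and 113 CPM and then 147, 66.3 and 152 (-0.06).

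**Figure D4:**
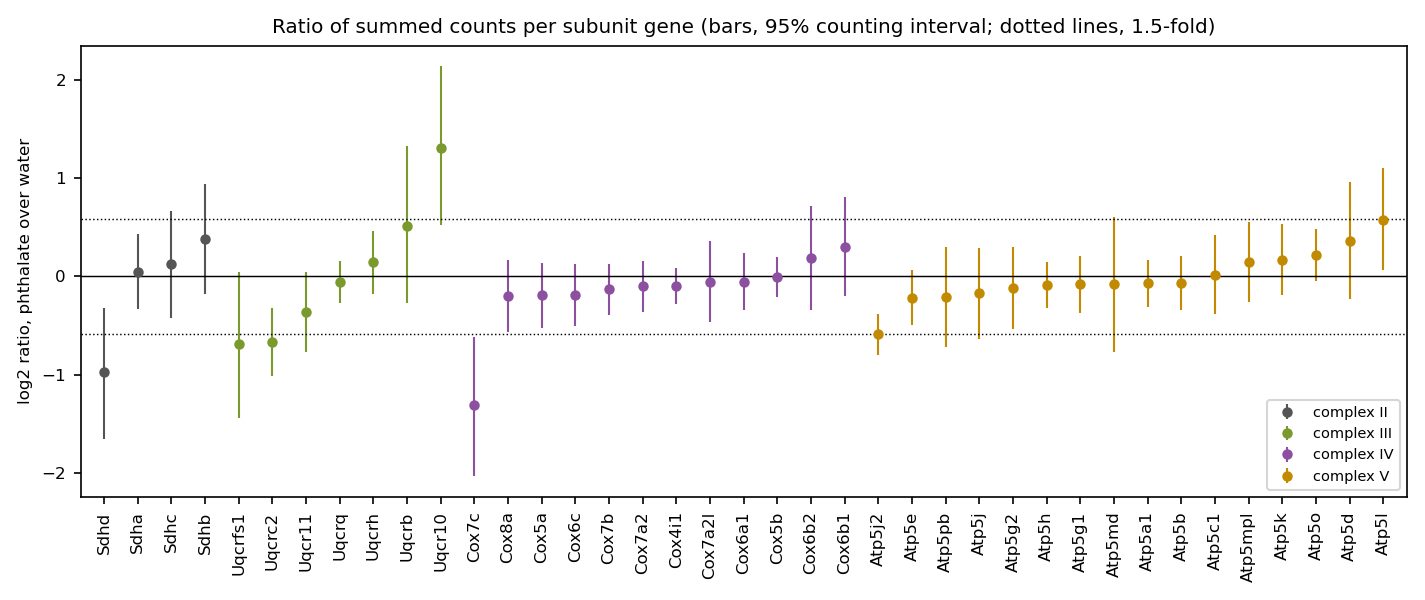
log2 ratio of phthalate over water for the 39 tested subunit genes, ordered within each complex. Bars are 95% counting intervals, which leave out variation between oocytes and animals, and dotted lines mark 1.5-fold. The genes beyond the lines are Sdhd, Uqcrfs1, Uqcrc2, Cox7c and Atp5j2 (lower) and Uqcr10 (higher).

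Summed over all 48 genes, the counts were 6562 with water (0.768% of all counts) and 5812 with phthalate (0.707%). The log2 ratio of the sums was -0.10 (interval -0.15 to -0.05, and -0.18 to -0.03 in read pairs). The summed CPM was 7652, 7791 and 7458 with water and 6377, 6865 and 8136 with phthalate. The water oocytes were close together, and the phthalate oocytes lay on both sides of them, 2 below and 1 above. The position of phthalate oocyte 3 depends on the scaling: as a plain share of counts its 0.761% lay within the water values of 0.789%, 0.771% and 0.745%, while the 0.654% and 0.702% of phthalate oocytes 1 and 2 were below them. The log2 ratio of the sums was -0.03 without phthalate oocyte 1 and -0.20 without phthalate oocyte 3.

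The wide spread of the phthalate oocytes came from complexes IV and V. Complex IV summed to 2961, 2972 and 2846 CPM with water and to 2257, 2655 and 3245 with phthalate (log2 ratio -0.11, interval -0.19 to -0.03, and -0.23 to 0.0092 in read pairs). Complex V summed to 3195, 3341 and 3212 CPM and then to 2717, 2920.3 and 3494 (-0.10, interval -0.18 to -0.02, and -0.21 to 0.013 in read pairs). In read pairs both intervals thus hold 0. Both sums show the same order of phthalate oocytes, and the complex IV ratio was 0.0029 without phthalate oocyte 1 and -0.24 without phthalate oocyte 3. Complex III summed to 1184, 1125 and 1051 CPM and then to 1044, 968 and 1082 (-0.12, interval -0.26 to 0.01). Complex II summed to 313, 353 and 349 CPM and then to 359, 322 and 315 (-0.03, interval -0.27 to 0.21), and here phthalate oocyte 1 was the highest of the phthalate oocytes.

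**Figure D5:**
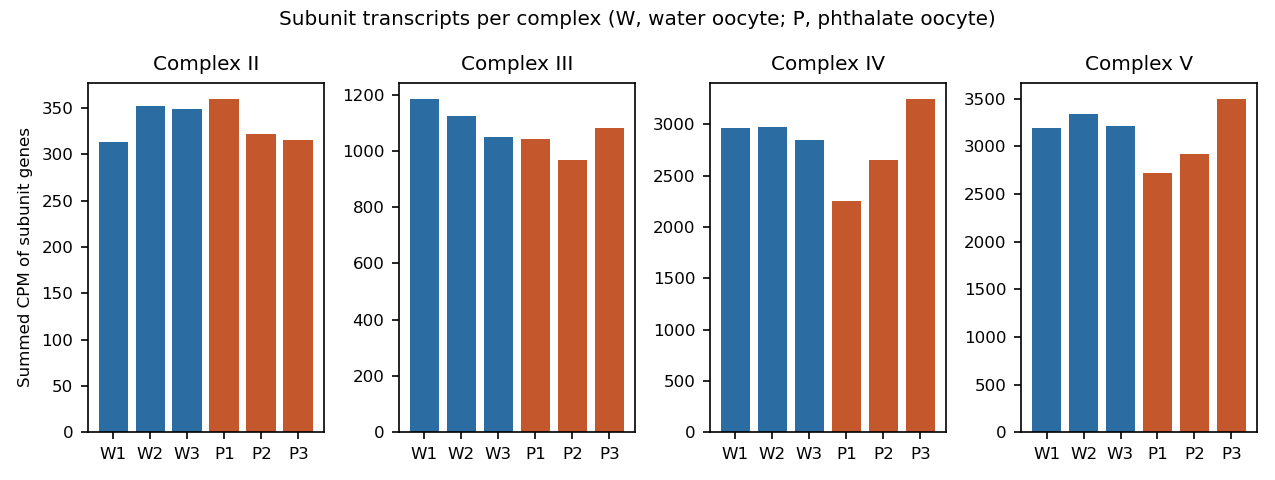
Summed CPM of the subunit genes of each complex in each library (W, water oocytes 1 to 3; P, phthalate oocytes 1 to 3; bars start at 0 and the panels have separate axes). In complexes IV and V phthalate oocyte 1 is the lowest and phthalate oocyte 3 the highest of the 6 libraries (2257 and 3245 CPM in complex IV), a place it does not have with plain library totals.

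The genes followed their sums. Phthalate oocyte 1 was the lowest of the 6 libraries in 14 of the 39 tested members (35.9%, against 19.3% of all tested genes) and the highest in 3 (7.69%, against 18.6%). Phthalate oocyte 3 was the highest in 13 (33.3%, against 19.5%). Deviations were taken as the log2 of CPM over each gene's mean CPM of the 6 libraries. The median member was at 0.02, 0.10 and 0.02 with water and at -0.23, -0.08 and 0.18 with phthalate. The median of all tested genes was between -0.02 and -0.01 in each library. The summed oocyte markers were also lowest in phthalate oocytes 1 and 2 and highest in phthalate oocyte 3 under this scaling, with 28638, 25784 and 27539 CPM with water and 24636, 23819.6 and 29556 with phthalate. The part of this in the result was not tested.

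The members varied less among the water oocytes than among the phthalate oocytes. The ratio of the highest to the lowest CPM within a group had a median of 1.40 over the tested members in water and 1.57 in phthalate, beside 1.59 and 1.68 over all tested genes. Atp5k, Cox6a1, Atp5j2 and Cox5b were the steadiest with water, each with a ratio of 1.05, and Uqcr10 was the least steady of the tested members at 6.86. In the phthalate oocytes the widest were Sdhd at 5.37 and Atp5pb, the b subunit of the stalk, at 4.03.

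Genes that act around complexes II to V were taken from lists chosen with earlier results of these data known. Of 44 assembly factors, 17 were tested: 7 were higher, 10 lower, 0 past 1.5-fold higher and 1 past 1.5-fold lower (over all tested genes 6.96% and 8.14%), with a median log2 ratio of -0.02. This median changed sign in 4 of 11 alternatives, from -0.12 without phthalate oocyte 2 to 0.13 without water oocyte 3. The 1 past 1.5-fold lower was Coa4, which has a role in building complex IV, at 16, 15 and 14 counts with water and 5, 8 and 7 with phthalate (log2 ratio -1.10). It met the filter with water alone and was named after its value was seen. Coa7 and Cox17, a copper chaperone for complex IV, were the extremes among those with a mean count of at least 20, at 0.33 and -0.40. Cycs, the electron carrier between complexes III and IV, was at 178, 201 and 175 counts and then 160, 207 and 152 (-0.02), and Atpif1, the inhibitor of ATP synthase, was at 107 and 102 counts (0.0031). Ndufa4, now counted as a complex IV subunit, was at 69 and 60 counts (-0.13).

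Of 15 symbols listed for the synthesis or function of ubiquinone, the carrier between complexes II and III, 13 are in the table. The symbols include older and newer names of the same gene. Of the 13, 3 passed the filter and all 3 were at least 1.5-fold lower with phthalate (8.14% of all tested genes were), each with a mean count under 20. This count supports no direction, since Coq3 met the filter with water alone and Coq10b in all 3 water oocytes and 1 phthalate oocyte. Their median log2 ratio was -0.88, and it was -0.47 without phthalate oocyte 1 and -0.34 over the genes of the list with no filter on low counts. They are named after their values were seen. Coq3 had 10, 16 and 15 counts and then 3, 8 and 6 (log2 ratio -1.20), without overlap. Pdss2 had 22, 24 and 10 and then 5, 8 and 16 (-0.88), and Coq10b 10, 19 and 12 and then 4, 10 and 11 (-0.64), both overlapping. All 13 genes of this list in the table summed to 237 and 162 counts (log2 ratio -0.48, interval -0.77 to -0.18, and -0.90 to -0.05 in read pairs). The summed CPM was 331, 259 and 239.8 with water and 124, 189 and 284 with phthalate, so phthalate oocyte 3 lay within the water range, and phthalate oocyte 1 was again the lowest.

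Complex I, which feeds electrons into the same chain, summed to 3821, 3546 and 3597 CPM with water and to 3463, 3381 and 4311 with phthalate. As in the sum of the 48 genes, phthalate oocytes 1 and 2 lay below all water oocytes and phthalate oocyte 3 above them. As plain shares of counts the complex I values were 0.394%, 0.351% and 0.359% with water and 0.355%, 0.346% and 0.403% with phthalate, which puts phthalate oocyte 1 inside the water range. Of its 39 nuclear subunit genes 31 were tested, 15 higher and 16 lower, with a median log2 ratio of -0.02 and a ratio of the sums of 0.02 (interval -0.05 to 0.09). The complex I median was above 0, between 0.040 and 0.11, with any library but phthalate oocyte 3 left out, and -0.073 without that one. Past 1.5-fold were Ndufb2 (0.77) and Ndufs6 (0.60), which were higher, and Ndufa7 (-0.80), which was lower, so that 2 of 31 and 1 of 31 stand beside 6.96% and 8.14% of all tested genes. These 3 had mean counts under 20 and were named after their values were seen. Ndufb2 met the filter in all 3 phthalate oocytes and 1 water oocyte, and Ndufa7 in 2 water oocytes and 1 phthalate oocyte. The counts of complex I genes past 1.5-fold are therefore a description. Whether complex I and the other complexes differ was not tested. Of 19 symbols listed for regulators of respiratory genes and mitochondrial DNA, 18 are in the table and 3 genes were tested. Of these 3, 0 were past 1.5-fold: Mterf4 (log2 ratio -0.06), Nrf1 (-0.15) and Tfb1m (0.21). Their median of -0.06 changed sign under 8 of the 11 alternatives in the processing.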

How the data were processed

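Per the labels, polyadenylated RNA of GV oocytes was made into Smart-seq3 cDNA and sequenced from both ends with 150 bp reads. The table the authors deposited holds raw counts, whole numbers without normalization, of 25239 genes named by symbol. Its 92 spike-in RNAs were left out here. The submitters' processing notes list cutadapt, Trimmomatic, HISAT2, DESeq2 and mm10 without role or version. The counting tool, the gene annotation, the use of strand and the handling of molecular identifiers are not given in the sources used here, so reads of overlapping genes or near-identical copies may have been split or shared. Such copies (at least 100 bases at 95% identity) are annotated for 14 of the 47 protein-coding members as pseudogenes, and another gene overlaps 20 of the 48.

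Counts were scaled by TMM (edgeR 4.0.16, R 4.3.3) over 4644 genes kept by filterByExpr (minimum count 10, minimum total count 15). A group value is the sum of its 3 libraries, a group sum of 0 was set to 3 counts, and ratios carry exact Clopper-Pearson intervals (95%) of 2 counts given their sum. Molecules were not counted, so true counting error is wider. Each group counted as 1 sample, so nothing was tested, and a call is a 1.5-fold ratio. The ratio script was checked on simulated data. Positions, lengths and transcript ends come from GENCODE M21, and promoters from RefSeq (GRCm38.p6).

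The members, lists and rules were chosen with earlier results of these data known. Values per library are given for the 3 highest and 3 lowest ratios among members with a mean count of at least 20, the 3 highest per length of each complex (all 4 of complex II) and the tissue-specific paralogs. The members past 1.5-fold and Uqcrc1, Cox6a1 and Cox7b as single cases were added after their values were seen, and the NRF1 pattern was shortened after matches of a longer form had been seen. Alternatives were other scalings, no filter, equal weights for libraries, Rn45s left out, read pairs, transcript length and each library left out.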

Additional observations from a re-analysis of the deposited data

How the results depend on the processing

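No paired analysis was possible because no result comes from a test: each group is 1 sample and the labels tie the shared library numbers to no animal or culture, so the planned block on them was not run. Leaving out each library in turn gave log2 ratios of the sums from -0.20 to -0.033 over all members, -0.24 to 0.0029 in complex IV and -0.20 to -0.027 in complex V, with phthalate oocytes 1 and 3 at the ends. Complex II changed sign in 3 of 11 alternatives (-0.085 to 0.0049), and complex III kept its sign in all 11. In the same way the members at least 1.5-fold higher numbered 1 to 4, with Uqcr10 among them each time (background 8.52% to 10.5%), and those at least 1.5-fold lower 3 to 5, with Cox7c among them each time (background 9.40% to 11.9%). Those without overlap numbered 5 to 9, where 2 libraries face 3 and the background is 18.3% to 24.2% in place of 10.1%. With plain library totals 5 members did not overlap (Sdhd and Uqcr11 joined Atp5j2, Cox7c and Uqcrc2), against 10.0% of the tested genes. With members of a mean count of at least 20, chosen after seeing the data, 0 were higher and 2 lower. Without the filter, Uqcrc1 and Cox8c joined the 5 that were lower, 7 of the 43 members with a ratio beside 19.5% of all genes given a ratio; the Cox8c ratio rests on 6 counts against the floor. The median of the 3 tested regulators (-0.059) was 0.078 without the filter and 0.078 with Rn45s left out, where other genes pass, and 0.026 to 0.39 with a library left out; the cause was not tested. Depth limits Cox4i2, Cox8c, Uqcrc1, Cox6a2, Atp5g3, Uqcrb, Uqcr10, Uqcrfs1, Atp5md, Cox7c and Sdhd most among the 44 with a count, each with a mean count of at most 15.3.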
